A study of Mus musculus with 8 samples.

Results

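Mitochondrial ribosomal protein genes were described in CD8 T cells of wild-type (WT) mice and of mice without interleukin-2 (IL-2-KO). Members were all rows whose mouse symbol starts with Mrpl (large subunit) or Mrps (small subunit) followed by a digit, with pseudogenes left out. This gave 78 of the 11723 listed genes, 49 of the large and 29 of the small subunit, and 78 is also the number of such genes in the RefSeq annotation used. All 78 had a value of at least 1 in at least 4 of the 8 libraries and were tested. Symbols were taken as the rule for the subunit, although the products of Mrps18a and Mrps30 sit in the large subunit of the mammalian mitoribosome and that of Mrps36 is a subunit of 2-oxoglutarate dehydrogenase.

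Mitochondria keep a small genome of their own and a ribosome that translates its messages, which encode subunits of the respiratory chain and ATP synthase. The RNAs of this ribosome are transcribed in the mitochondrion, whereas every one of its proteins is encoded in the nucleus, made in the cytosol and imported. Some of these proteins descend from those of bacterial ribosomes and others are found only in mitochondria. When T cells leave quiescence they enlarge their mitochondria and raise mitochondrial translation, and interleukin-2 is a signal for such growth and for the upkeep of regulatory T cells.

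The source was peripheral lymph nodes of BALB/c mice aged 12 days, from which CD8 T cells were isolated by flow sorting, and a stranded kit turned their total RNA into libraries. Both groups had 4 libraries. The WT libraries came from 115, 28.7, 1.3 and 1.3 M cells (M, 1e6) of 5, 5, 3 and 2 pooled mice (115 M is high for 5 mice of this age and was used as labelled), and the IL-2-KO libraries from 26.7, 42.6, 1.1 and 0.4 M cells, with no pooling stated. The design text also names the spleen and heterozygous controls, which the sample labels do not, and it calls the samples biological replicates. The labels name neither the deleted part of Il2 nor any treatment.

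The libraries held 11.9 to 18.4 M counts over the listed genes, and a value of 1 TMM-scaled count per M (CPM, the deposited unit) stood for 11.9 to 18.6 counts. Members rested on between 91.1 counts in the library where Mrps36 was lowest and 2720 in the library where Mrpl24 was highest. Il2, the targeted gene, was at 5.72, 5.65, 6.25 and 5.91 CPM in WT and at 5.13, 7.32, 8.42 and 4.25 CPM in IL-2-KO (log2 change 0.04, exact two-sided permutation p = 0.857 over 70 assignments), so its level did not separate the labels. All 6 CD8 T cell markers were listed, with a sum of 5370 to 6240 CPM in WT and 4638 to 5416 CPM in IL-2-KO. Their median log2 change was -0.14, with 0 positive and 1 called lower in the limma test described below. Markers of other cell types were uneven, and bulk values do not show which cells carried them. The 3 CD4 T cell markers summed to 49.5 CPM in WT 2 and 54.3 CPM in IL-2-KO 3 against at most 8.80 CPM elsewhere, and 6 of 9 myeloid and dendritic markers to 143 and 511 CPM in those libraries against 39.4 to 56.9 CPM elsewhere. The 3 listed NK cell markers summed to 106 to 156 CPM in WT and 217 to 404 CPM in IL-2-KO. Most of this sum came from 1 gene, which reached 390 CPM. The median over the 3 genes was 1.42 CPM in WT and 6.43 CPM in IL-2-KO, and 2 of them were called higher in the same test (11.1% of all genes were). Of 4 plasma cell markers 1 was listed, at 0.48 to 1.69 CPM in WT and 1.90 to 5.32 CPM in IL-2-KO, and was called higher. Their part in the results below was not tested. In bulk samples, fewer cells of a type and less RNA per cell cannot be told apart.

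The start regions of these genes were searched for short motifs. RefSeq start windows on GRCm38.p6, from 250 bases before to 50 bases after the annotated start, were found for 69 members (75 windows, since some genes have several starts). The core letters bound by ETS factors such as GABP (CCGGAAG, either strand) were in 34.7% of members' windows, 18.3% of the windows of other tested genes and 8.86% of all windows. The core of NRF1 (GCATGCGC) was in 10.7%, 5.39% and 2.71%, and that of YY1 (AAGATGGCG) in 10.7%, 3.10% and 1.40%. The E-box bound by MYC (CACGTG) was in 9.33%, 10.2% and 7.15%, the CCAAT box (CCAAT) in 30 of the members' 75 windows, 38.1% and 37.4%, and the GC box (GGGCGG) in 52.0%, 62.1% and 35.7%. The shares of ETS, NRF1 and YY1 cores were thus higher in the members' windows than in those of other tested genes, and those of E-boxes and GC boxes were not; these shares were not tested. Counted by gene, 26 of the 69 members had an ETS core, 8 an NRF1 core, 8 a YY1 core and 5 an E-box, and 38 had at least 1 of these motifs. Overlapping start windows of Mrpl2 hold the same E-box, so the share of windows counts it more than once. The ETS and YY1 cores can overlap by 3 letters, and the NRF1 core overlaps its own reverse.

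Members' ETS matches lay close to the start, with 26 of 31 beginning between 60 bases before it and the end of the window. The windows of 4 members are printed to show the forms these starts take, each as the 150 bases before the start on the gene's strand, with ETS or NRF1 cores in capitals. Mrpl43 lies on chromosome 19 (chr19:45006443-45006592, minus strand) with ETS cores 56 and 12 bases before the start. Mrpl52 (chr14:54426759-54426908, plus strand) has 1 ETS core in these bases, on the opposite strand, 47 bases before the start. Mrpl32 (chr13:14613038-14613187, minus strand) has 4 overlapping or neighbouring NRF1 cores, counting both strands. Mrpl23 (chr7:142532882-142533031, plus strand), the member that fell most, has none of these letters.
Mrpl43: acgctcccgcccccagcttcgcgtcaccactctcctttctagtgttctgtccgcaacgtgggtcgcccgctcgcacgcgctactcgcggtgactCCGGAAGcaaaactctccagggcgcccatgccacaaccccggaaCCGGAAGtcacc
Mrpl52: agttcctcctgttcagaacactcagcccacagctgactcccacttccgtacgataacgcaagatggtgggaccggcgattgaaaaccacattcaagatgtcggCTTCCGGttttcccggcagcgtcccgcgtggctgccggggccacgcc
Mrpl32: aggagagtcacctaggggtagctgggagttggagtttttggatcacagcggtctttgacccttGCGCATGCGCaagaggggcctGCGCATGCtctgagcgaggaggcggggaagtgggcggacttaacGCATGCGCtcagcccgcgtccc
Mrpl23: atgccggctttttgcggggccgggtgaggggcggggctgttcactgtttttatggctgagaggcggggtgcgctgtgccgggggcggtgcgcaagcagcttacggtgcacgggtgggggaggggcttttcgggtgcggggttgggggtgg
A match of letters is a description and not a bound site. The median log2 change was 0.08 in the 26 members with an ETS core and 0.07 in the 43 with a window but no core. Calls were made for 3 of the 26 and 3 of the 43, where 19.2% of all genes tested were called, and the sets were not tested against each other. Factors that bind these motifs were part of a list of 7 transcription regulators that also act on mitochondrial genes. The list gave 0 calls by limma (1 at an unadjusted p under 0.05, lower). Its median change was -0.15, with 1 of the 7 positive (14.3%, against 48.5% of all genes). Nrf1 stood at 88.3 ± 8.78 CPM in WT and 84.2 ± 4.70 CPM in IL-2-KO, Gabpa at 115 ± 8.18 and 117 ± 20.9, Yy1 at 162 ± 8.95 and 152 ± 10.8, and Myc at 208 ± 15.7 and 185 ± 22.0 (mean ± SD, n = 4 each).

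Every member was transcribed at a readily measured level in both groups. Levels of different genes were compared as CPM per kilobase (kb) of transcript, which needs a transcript length and so carries the uncertainty of the median annotated length used. In WT, Mrpl33 stood highest at 188 ± 12.1 CPM per kb, followed by Mrpl24 at 128 ± 2.30 and Mrpl30 at 104 ± 9.48 (mean ± SD, n = 4). All 3 encode homologues of bacterial large-subunit proteins. In the small subunit Mrps21 (94.96 ± 6.11), Mrps23 (78.4 ± 6.75) and Mrps9 (75.4 ± 2.01) led, of which the last pair did not differ beyond their spread.

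The lowest members per kb were Mrps25 at 2.55 ± 0.31, Mrpl47 at 3.90 ± 0.44, Mrpl35 at 6.73 ± 0.66, Mrpl51 at 6.88 ± 0.76 and Mrpl19 at 6.89 ± 0.41 CPM per kb, where the last 3 did not differ beyond their spread (Mrpl19 was named after its value was seen). All 5 have a long median transcript in the annotation (3364 to 6073 bases), so their low rank rests in part on that length. The next lowest small-subunit genes were Mrps5 at 11.4 ± 0.17 and Mrps36 at 11.9 ± 0.74 CPM per kb. In IL-2-KO Mrpl33 was at 198 ± 27.5, Mrpl52 at 135 ± 24.1, Mrps21 at 118 ± 27.8 and Mrpl24 at 113 ± 8.26 CPM per kb. Mrpl33 was highest in each group, and the libraries of the other 3 overlapped in IL-2-KO.

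**Figure D1:**
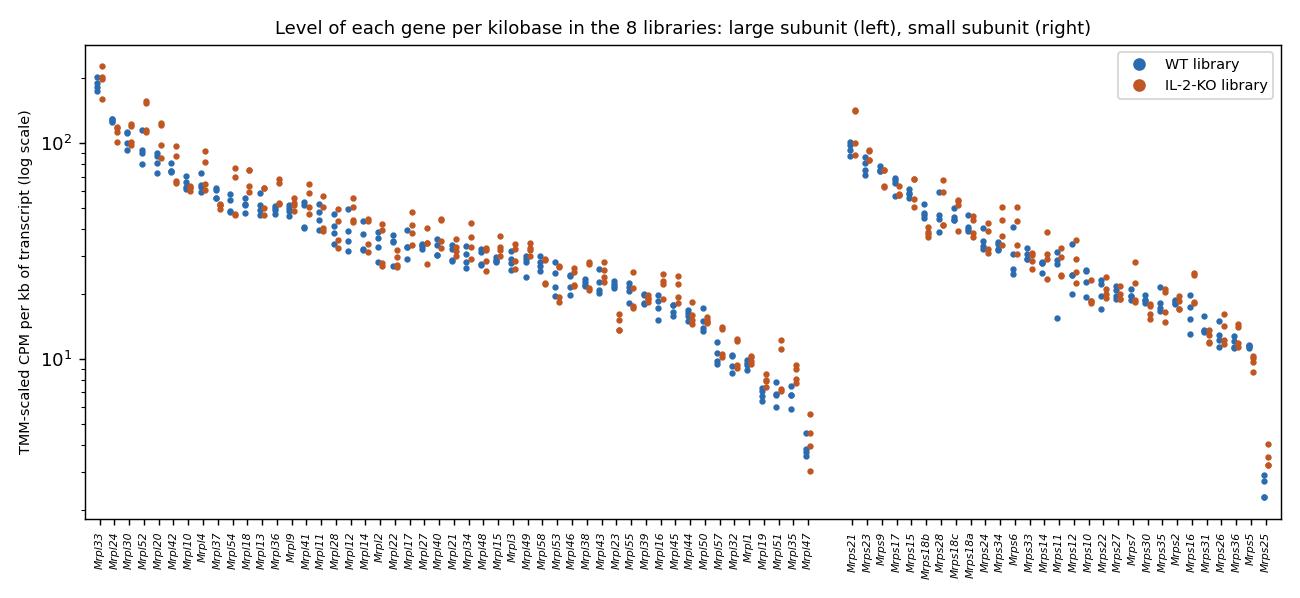
Level of each of the 78 genes in CPM per kb of transcript (vertical, log scale), with 1 point per library, WT in blue and IL-2-KO in orange; genes are ordered by the WT mean within the large (left) and the small subunit (right). Mrpl33 leads at 188 and Mrps25 is lowest at 2.55 CPM per kb in WT, and for most genes the points of both groups overlap.

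IL-2-KO and WT cells differed little in these genes. Of the 78 members 4 rose (Mrpl18, Mrps25, Mrpl52 and Mrpl35), 2 fell (Mrpl23 and Mrps18b) and 72 did not pass limma's test (p-values adjusted by Benjamini-Hochberg over all 11530 genes in the test, threshold 0.05). Among all genes tested 19.2% were called, 11.1% higher and 8.03% lower, against 7.69% of members, 5.13% higher and 2.56% lower. On the log2(CPM + 0.5) scale of the test 0 members changed by more than 1.5-fold, a size that 11.5% of all genes passed, and on that of the CPM means 1 did (Mrpl23, 1.505-fold lower). The 95% intervals of 66 members lay within 1.5-fold either way (84.6%, against 63.9% of all genes), and those of all 78 within 2-fold.

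Positive changes were more numerous than negative ones. The median log2 change (on the log2(CPM + 0.5) scale, as are all changes below) was 0.09 over the members and -0.01 over all genes tested, with a middle range of members from -0.02 to 0.20. Of the members 55 (70.5%) had a positive change, against 48.5% of all genes. At an unadjusted p under 0.05 stood 21 members (26.9%, against 33.3% of all genes), 15 of them with a positive change (19.2%, against 17.0%). The median was 0.04 without IL-2-KO 1, 0.05 without IL-2-KO 3 and 0.14 without IL-2-KO 4, so single libraries moved it by more than 1.5 times. With array weights, which let libraries count by their consistency, it was 0.01 and 43 members were positive.

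**Figure D2:**
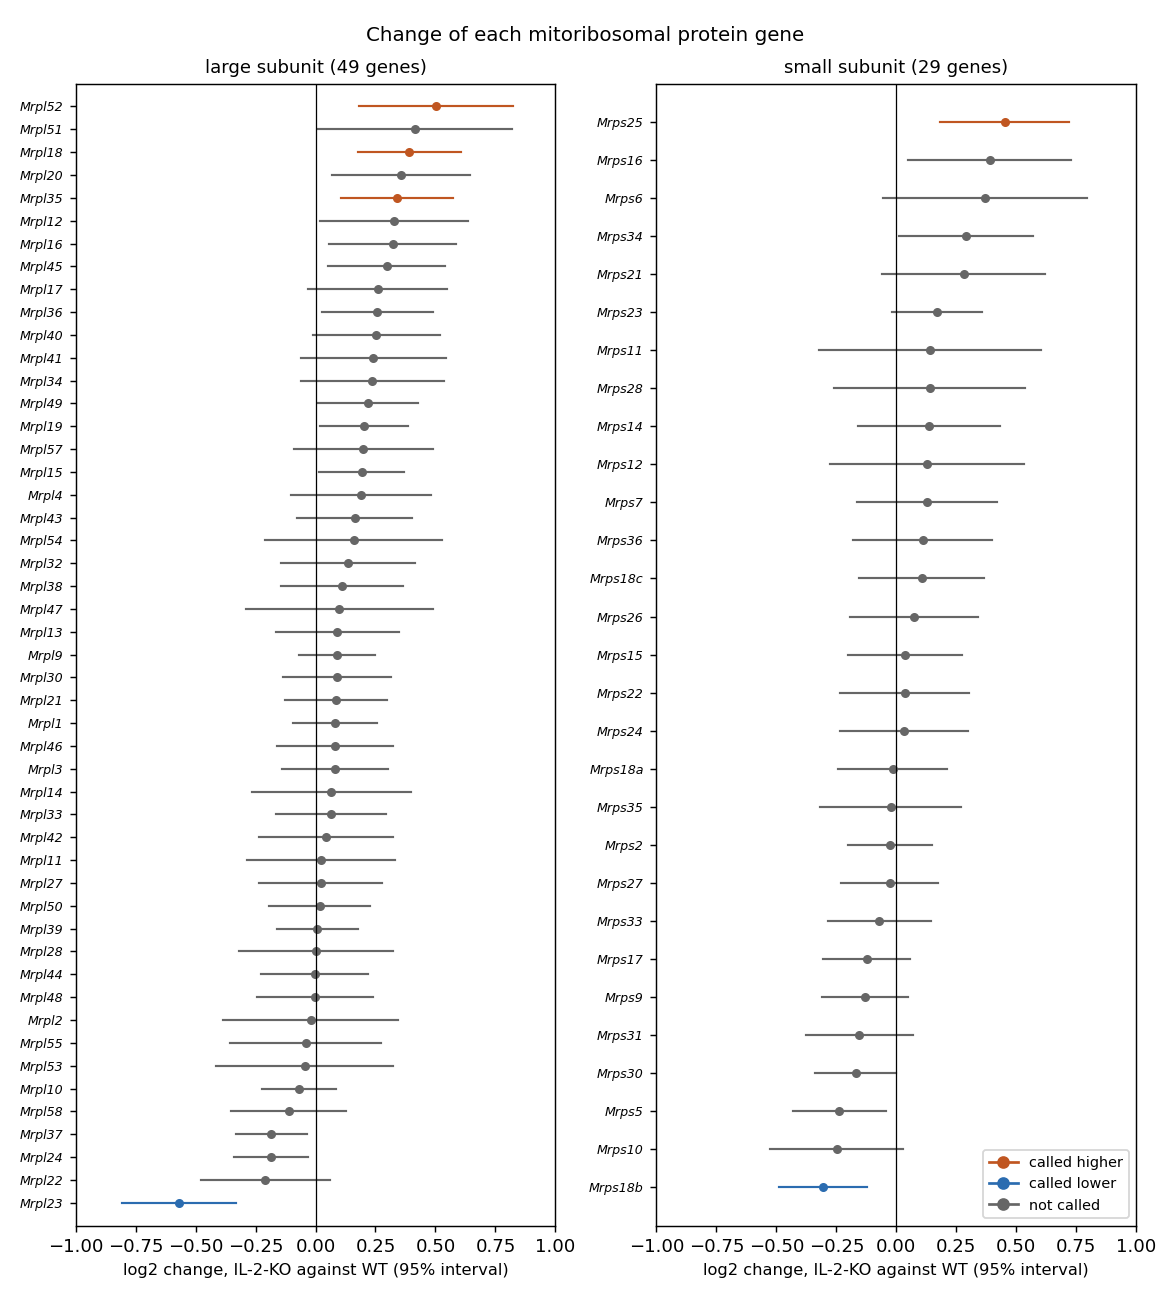
Log2 change of each gene, IL-2-KO against WT (horizontal), with its 95% interval from limma, by subunit; orange genes were called higher, blue lower and grey were not called. The changes run from -0.57 (Mrpl23) to 0.50 (Mrpl52), and most intervals cross 0.

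Mrpl23, a homologue of the bacterial protein at the exit of the tunnel through which the nascent chain leaves the ribosome, fell most. It stood at 15.9, 15.1, 14.8 and 15.3 CPM in WT replicates 1 to 4 and at 11.2, 9.43, 10.5 and 9.45 CPM in IL-2-KO replicates 1 to 4. The groups did not overlap, and the highest IL-2-KO library lay well below the lowest WT library. The change was -0.57 (95% interval -0.81 to -0.33, adjusted p = 0.00478), and the IL-2-KO mean was 0.664 of the WT mean in CPM. Both sets of 4 libraries of like cell number gave a change of -0.57, although such a set alone did not pass the test (adjusted p = 0.304 above 2 M cells and 0.148 below). RefSeq annotates a pseudogene of Mrpl23 that the table does not list, so reads from the copies could have been shared.

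Mrps18b, 1 of 3 mammalian relatives of the bacterial small-subunit protein S18, also fell. Its values were 42.1, 36.1, 38.3 and 37.4 CPM in WT and 33.0, 31.0, 29.5 and 30.6 CPM in IL-2-KO. All 4 IL-2-KO libraries lay below all WT libraries (change -0.31, 95% interval -0.49 to -0.12, adjusted p = 0.0288). The call was lost, with changes between -0.26 and -0.32, when any library but WT 2 or IL-2-KO 1 was left out (adjusted p = 0.0506 to 0.0869). The other relatives did not pass: Mrps18a was at 31.3 ± 2.54 CPM in WT and 31.1 ± 3.27 in IL-2-KO, and Mrps18c at 29.3 ± 1.81 and 31.8 ± 4.63 (n = 4 each).

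Mrpl18, whose bacterial homologue binds the small RNA of the large subunit, rose. It measured 68.2, 57.7, 64.0 and 63.1 CPM in WT and 92.0, 77.0, 91.9 and 72.7 CPM in IL-2-KO. The groups did not overlap, and IL-2-KO 1 and 3 were the highest libraries (change 0.39, 95% interval 0.18 to 0.61, adjusted p = 0.0189). Without WT 3 and without WT 4 the adjusted p was 0.0531 and 0.0550, and without both WT 2 and IL-2-KO 3 the change was 0.30 (adjusted p = 0.0750). Its gene shares 1459 bases with Tcp1 on the other strand, which encodes a subunit of the cytosolic chaperonin. Tcp1 also rose, from 244 ± 14.2 to 293 ± 22.2 CPM (change 0.26, adjusted p = 0.0378), and whether these genes shared reads was not tested; the sources used here do not give the strand setting of the counting.

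Mrps25, a small-subunit protein found only in mitochondria, rose from 13.8, 16.5, 13.9 and 17.5 CPM in WT to 24.5, 19.6, 21.4 and 19.6 CPM in IL-2-KO. The groups did not overlap (change 0.45, 95% interval 0.18 to 0.72, adjusted p = 0.0275). The call was lost without WT 1, WT 3, IL-2-KO 1 or IL-2-KO 3 (changes 0.38 to 0.45, adjusted p = 0.0530 to 0.0924) and after quantile normalization (0.37, adjusted p = 0.0571). Its gene overlaps Nr2c2 by 3547 bases on the other strand, and Nr2c2 was at 83.6 ± 14.8 CPM in WT and 74.7 ± 30.2 in IL-2-KO and did not pass.

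Mrpl52, a protein of the large subunit found only in mitochondria, had the largest rise of the family. Its values were 38.7, 48.2, 33.6 and 37.5 CPM in WT and 64.2, 47.3, 66.0 and 48.1 CPM in IL-2-KO. The groups overlapped, because WT 2 stood as high as IL-2-KO 2 and 4 (change 0.50, 95% interval 0.18 to 0.82, adjusted p = 0.0354). The call was lost without WT 1, WT 3, WT 4, IL-2-KO 1 or IL-2-KO 3 (changes 0.42 to 0.50, adjusted p = 0.0814 to 0.111).

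Mrpl35, a homologue of a bacterial large-subunit protein, was the weakest of the calls. It stood at 27.7, 25.4, 21.8 and 25.3 CPM in WT and at 35.0, 29.9, 33.4 and 28.9 CPM in IL-2-KO. The groups did not overlap (change 0.34, 95% interval 0.11 to 0.57, adjusted p = 0.0464). It passed in only 8 of 24 alternative settings, and leaving out any library but IL-2-KO 4 ended the call (changes 0.28 to 0.39, adjusted p = 0.0530 to 0.144).

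**Figure D3:**
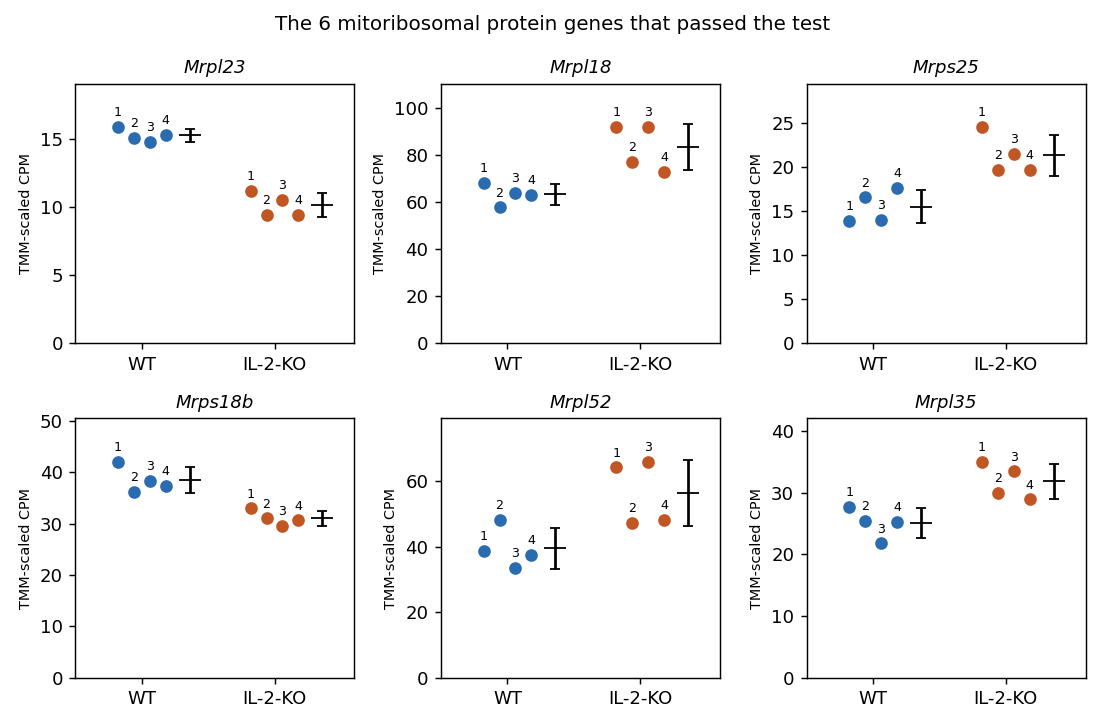
CPM (vertical, from 0) of the 6 genes that passed the test, with 1 numbered point per library and the mean ± SD in black. All IL-2-KO points lie below all WT points for Mrpl23 and Mrps18b and above them for Mrpl18, Mrps25 and Mrpl35, and in Mrpl52 the groups overlap.

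The groups did not overlap in 7 members with IL-2-KO higher (8.97%, against 12.9% of all genes) and in 6 with IL-2-KO lower (7.69%, against 11.2%). Mrpl37, a mitochondria-specific large-subunit protein, was among those that were lower without passing, at 90.5, 92.5, 83.3 and 83.5 CPM in WT and 78.2, 74.4, 77.6 and 77.1 CPM in IL-2-KO (change -0.18, adjusted p = 0.0782). It passed under the median shift, with array weights and after GC and length correction. Mrpl24 measured 157 ± 2.81 and 138 ± 10.1 CPM (-0.19, adjusted p = 0.0890), and Mrps5, which lines the path of the message, 28.0 ± 0.43 and 23.8 ± 1.69 CPM (-0.24, adjusted p = 0.0842). Rrnad1, which overlaps Mrpl24 on the other strand by 850 bases, fell from 60.1 ± 3.14 to 47.4 ± 5.21 CPM (-0.34, adjusted p = 0.0270).

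Mrpl12, Mrpl11, Mrpl3 and Mrpl44, large-subunit genes of a fixed panel, did not pass. Mrpl12, a protein of the stalk that recruits translation factors, was at 51.5, 65.2, 46.3 and 41.8 CPM in WT and 73.6, 58.0, 66.5 and 57.0 CPM in IL-2-KO, where WT 2 lay within the range of IL-2-KO (change 0.33, adjusted p = 0.130). Mrpl11, at the base of the stalk, was at 30.4 ± 3.58 and 31.1 ± 5.66 CPM, with a change whose sign depended on the scaling. Mrpl3, which reaches towards the peptidyl transferase centre, was at 65.9 ± 5.57 and 69.97 ± 8.15 CPM. Mrpl44, which has the fold of a ribonuclease, was at 22.8 ± 1.09 and 22.8 ± 2.36 CPM (95% interval of the change -0.23 to 0.22).

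Further large-subunit genes named for their p or level gave values on both sides of 0. Mrpl20, a homologue of a bacterial assembly protein, was at 40.9 ± 3.90 CPM in WT and 53.0 ± 9.18 in IL-2-KO (0.36, adjusted p = 0.0800) and passed only without IL-2-KO 4. Mrpl51 was at 23.5, 26.9, 20.6 and 23.3 CPM in WT and 38.3, 24.95, 41.9 and 24.3 CPM in IL-2-KO, where only IL-2-KO 1 and 3 lay above every WT library (0.41, adjusted p = 0.142). Its start lies 100 bases from that of Ncapd2, a condensin subunit of dividing cells, which rose from 60.6 ± 4.04 to 136 ± 19.6 CPM (1.15, adjusted p = 0.00011). Mrpl22, a homologue of a bacterial large-subunit protein, was at 24.3 ± 3.37 and 20.8 ± 1.70 CPM (-0.21, adjusted p = 0.262).

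Of the small-subunit genes named here by a fixed panel, p or level, Mrps25 and Mrps18b passed and the following did not. Mrps12, which sits at the decoding centre, was at 17.7, 24.5, 14.4 and 17.7 CPM in WT and 25.7, 18.2, 21.1 and 16.2 CPM in IL-2-KO, with full overlap (0.13, adjusted p = 0.663). Mrps7, which starts the assembly of the subunit's head in bacteria, was at 38.7 ± 1.78 and 43.0 ± 9.07 CPM (0.13, adjusted p = 0.539). Mrps9, of the head, was at 107 ± 2.85 and 97.9 ± 9.92 CPM (-0.13, adjusted p = 0.292). Mrps16 was at 42.1 ± 7.44 and 55.4 ± 9.78 CPM (0.39, adjusted p = 0.104), the second highest change of the small subunit.

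Mrps22 and Mrps34, mitochondria-specific proteins whose loss causes mitochondrial disease in people, were at 24.6 ± 3.35 and 25.2 ± 2.52 CPM (0.04, adjusted p = 0.869) and at 30.6 ± 1.27 and 38.0 ± 7.06 CPM (0.29, adjusted p = 0.134). Mrps30 was at 62.5 ± 2.00 and 55.6 ± 4.20 CPM (-0.17, adjusted p = 0.149), and its groups did not overlap. Mrps10 was at 23.8 ± 3.03 and 19.9 ± 2.42 CPM (-0.25, adjusted p = 0.194). Mrps36, the least abundant member in CPM, was at 7.55 ± 0.47 and 8.22 ± 1.01 (0.11, adjusted p = 0.598).

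The changes of large and small subunit genes were set side by side without a test. Of the 49 large-subunit genes 3 rose and 1 fell (8.16% called), with a median change of 0.09 and 38 positive (77.6%). Of the 29 small-subunit genes 1 rose and 1 fell (6.90% called), with a median of 0.04 and 17 positive (58.6%). Among all genes tested 19.2% were called and 48.5% had a positive change, so the share called was below that of all genes in both subunits. With Mrps18a and Mrps30 counted as large and Mrps36 left out, the medians were 0.09 and 0.06. The small-subunit median was -0.01 without IL-2-KO 1 and 0.12 without IL-2-KO 4.

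The summed CPM of the large-subunit genes was 1.88, 1.83, 1.84 and 1.89 times that of the small-subunit genes in WT and 1.97, 1.91, 1.92 and 1.92 times in IL-2-KO. The groups did not overlap in this ratio, whose difference is a few percent. In mean log2 level, large minus small was 0.06 to 0.12 in WT and 0.12 to 0.20 in IL-2-KO by symbol, with no overlap. By structure it was at most 0.09 in WT and at least 0.08 in IL-2-KO, so the groups then overlapped. No test was made of these sums.

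Genes on a list of direct bacterial homologues (46) had a median change of 0.09, with 2 higher and 1 lower (6.52% called, against 19.2% of all genes). The other 32, mostly proteins found only in mitochondria but also Mrps18a, Mrps18b and Mrps36, had 0.06, again with 2 higher and 1 lower (9.38% called). In the small subunit the 16 listed homologues gave 0 calls by limma (2 at an unadjusted p under 0.05), with a median of 0.12. The other 13 genes gave 1 higher and 1 lower (15.4% called), with a median of -0.02. The groups of genes by descent were not tested against each other.

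Differences between libraries of the same genotype were as large as the difference between genotypes. The mean log2 level of the 78 members was 5.17, 5.19, 5.06 and 5.11 in WT and 5.37, 5.12, 5.33 and 5.06 in IL-2-KO. IL-2-KO 1 and 3 stood above all WT libraries, whereas IL-2-KO 2 lay within the WT range and IL-2-KO 4 just below it. IL-2-KO 1 and 3 were the highest pair among the IL-2-KO libraries in 62 of 78 members (79.5%), against 32.7% of all genes tested. The members' share of the listed signal was 0.295% to 0.321% in WT and 0.288% to 0.363% in IL-2-KO.

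The median over members of the highest over the lowest library was 1.21 in WT and 1.31 in IL-2-KO. This ratio ran up to 2.04 in WT and 1.83 in IL-2-KO, whereas the ratio of the groups' CPM means passed 1.5 in 1 member, Mrpl23, at 1.505. The SD of log2 values was larger in IL-2-KO for 53 members (67.9%), close to the 68.2% of all genes. IL-2-KO 1 and 3 do not share a cell number, with 26.7 and 1.1 M cells, and the CD4 and myeloid marker sums of IL-2-KO 1 were 8.64 and 56.9 CPM, against 54.3 and 511 CPM in IL-2-KO 3. Whether cell number or such transcripts bear on the members' level in either library was not tested.

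Other gene sets were also higher in IL-2-KO 1 and 3 than in IL-2-KO 2 and 4, though not always in the same order. All tested genes with a median transcript under 1 kb had a mean log2 level of 5.31, 5.20, 5.39 and 5.17 in IL-2-KO 1 to 4, and 36 members are that short. The median change was 0.087 in these 36 members and 0.086 in the 42 with longer transcripts. Among all genes it was 0.025 under 1 kb and -0.020 from 1 kb on. Removing each library's trend with GC content and transcript length brought the members to 5.33, 5.15, 5.27 and 5.10, a narrower spread (SD 0.11, against 0.15 as deposited) in the same order. The difference between the groups in this mean was 0.09 as deposited and 0.07 after the correction for the members. For all genes it was 0.06 and 0.07, but their changes reached further up (1.93 at 99% of genes) than down (-0.875 at 1%). In median change the members stood at 0.09 and all genes at -0.01.

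The 87 cytosolic ribosomal protein genes (Rpl and Rps) gave 0 higher and 1 lower call by limma (6 and 3 at an unadjusted p under 0.05), with a median change of 0.08. The share called was 1.15%, against 19.2% of all genes. Their IL-2-KO means were 8.002, 7.69, 8.08 and 7.82, again highest in libraries 1 and 3, but in WT they were 7.77, 8.09, 7.74 and 7.73, where WT 2 stood out as it did not for the mitochondrial set. The 80 nuclear genes of the respiratory chain, a set that here includes ATP synthase, gave 4 higher and 0 lower calls by limma (20 and 2 at an unadjusted p under 0.05). The share called was 5%, and the median was 0.18 with 71 positive. Their IL-2-KO means of 6.33, 6.07, 6.31 and 6.01 followed the members' order.

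**Figure D4:**
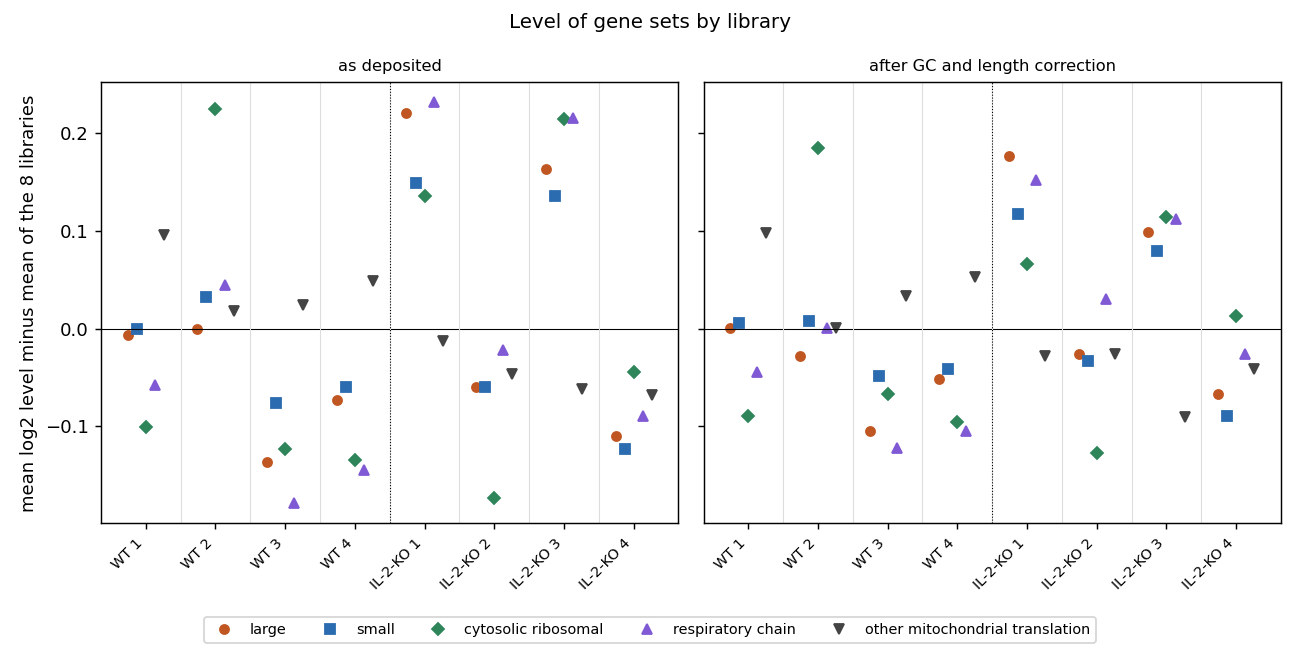
Mean log2 level of 5 gene sets in each library (vertical, as the difference from the mean over the 8 libraries), as deposited (left) and after GC and length correction (right). Large and small subunit genes are high in IL-2-KO 1 and 3, and the other mitochondrial translation genes lie at or above 0 in WT and below it in IL-2-KO.

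The other genes of mitochondrial translation leaned the opposite way. From lists of 86 tested genes 2 rose, 8 fell and 76 did not pass, with a median change of -0.10 and 21 positive (24.4%). The share called was 11.6%, against 19.2% of all genes. Their mean log2 level was 5.31, 5.23, 5.23 and 5.26 in WT and 5.20, 5.16, 5.15 and 5.14 in IL-2-KO, so the groups did not overlap and the IL-2-KO libraries lay close together.

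Aminoacyl-tRNA synthetases, which load tRNAs with amino acids, and the amidotransferase that corrects 1 of these loads gave 4 lower and 2 higher calls among 22 tested genes (27.3%, against 19.2% of all genes). Cars2, for cysteine, fell from 86.6, 82.4, 85.4 and 87.1 to 70.5, 69.95, 66.8 and 67.9 CPM (-0.31, adjusted p = 0.00637), with no overlap. Ears2, for glutamate, fell from 25.6 ± 2.07 to 18.7 ± 1.80 CPM (-0.44, adjusted p = 0.0156). Lars2, for leucine, fell from 165 ± 32.5 to 114 ± 8.19 CPM (-0.52, adjusted p = 0.0165).

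The genes that rose encode the synthetases that serve both the cytosol and the mitochondrion. Kars, for lysine, went from 155, 132, 133 and 141 to 176, 188, 172 and 190 CPM (0.37, adjusted p = 0.00621), with no overlap. Gars, for glycine, went from 153 ± 5.81 to 178 ± 9.07 CPM (0.21, adjusted p = 0.0456). Gatc, a subunit of the amidotransferase, fell from 41.2 ± 5.01 to 30.5 ± 4.58 CPM (-0.43, adjusted p = 0.0381).

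Among 14 translation factors Metap1d, which removes the initiating methionine, fell from 105, 90.2, 94.0 and 93.1 to 67.5, 70.9, 67.9 and 62.9 CPM (-0.50, adjusted p = 0.00118), with no overlap. The others did not pass. Of 26 genes of mitoribosome assembly and ribosomal RNA modification 3 fell and 0 rose (11.5%, against 19.2% of all genes; 6 lower and 1 higher at an unadjusted p under 0.05). Mrm1, a methyltransferase of the large ribosomal RNA, fell from 34.9 ± 2.01 to 26.1 ± 0.51 CPM (-0.41, adjusted p = 0.00631), Nsun4, a methyltransferase that also joins the assembly of the subunits, from 48.7 ± 5.30 to 36.9 ± 2.96 CPM (-0.39, adjusted p = 0.0240), and Mettl17, an assembly factor of the small subunit, from 120 ± 8.39 to 94.99 ± 12.8 CPM (-0.34, adjusted p = 0.0413). The 19 genes of mitochondrial transcription and RNA handling gave 0 calls by limma (1 at an unadjusted p under 0.05).

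Mitoribosomal proteins that carry other symbols gave 0 calls by limma among 5 genes (1 at an unadjusted p under 0.05). Dap3, the GTP-binding protein of the small subunit, was at 92.3 ± 0.78 CPM in WT and 96.0 ± 7.71 in IL-2-KO (0.05, adjusted p = 0.647). Ptcd3 was at 123 ± 4.44 and 108 ± 7.70 CPM (-0.19, adjusted p = 0.0927), Chchd1 at 39.0 ± 4.22 and 41.2 ± 8.71, Aurkaip1 at 66.0 ± 8.35 and 79.7 ± 18.5, and Gadd45gip1 at 25.4 ± 1.84 and 24.3 ± 3.67. In Aurkaip1 the 95 and 96 CPM of IL-2-KO 1 and 3 stood above the 67 and 60 CPM of IL-2-KO 2 and 4.

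A panel of 8 cell cycle genes, a chosen list and not a sample of all genes, was measured in the same fit. All 8 rose, with a median change of 1.73 and a summed level of 535 to 611 CPM in WT and 1215 to 1649 CPM in IL-2-KO. In IL-2-KO 1 to 4 the sum was 1215, 1562, 1649 and 1532 CPM. It was lowest in IL-2-KO 1, where the members were highest, and highest in IL-2-KO 3, where they were next highest. A link between the panel and the members was not tested. For Mki67, a marker of dividing cells, the values were 130, 94.4, 131 and 127 CPM in WT and 348, 499, 515 and 481 CPM in IL-2-KO (1.93, adjusted p = 6.21e-05).

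**Figure D5:**
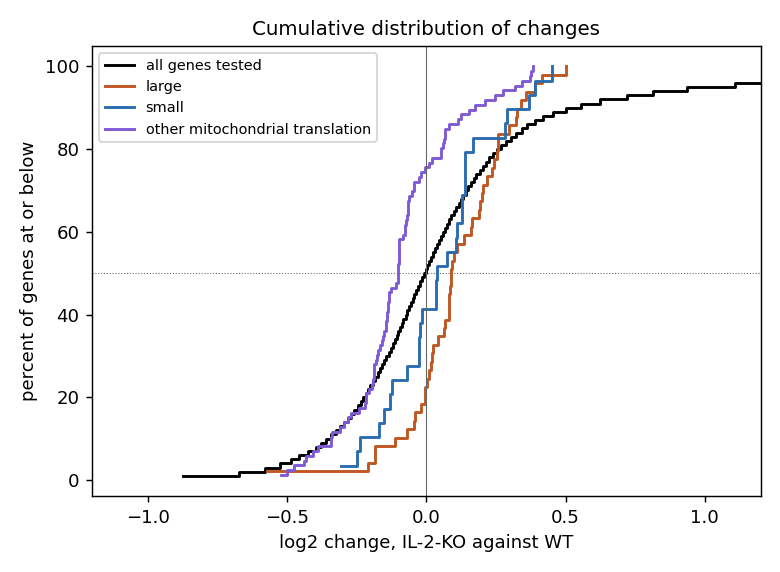
Cumulative distribution of log2 changes, IL-2-KO against WT (horizontal), as the percent of genes at or below each change (vertical), for the large and small subunit genes, the other mitochondrial translation genes and all genes tested. The large-subunit curve crosses 50% at 0.09, the other translation genes at -0.10, and no member reaches beyond -0.57 or 0.50.

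The members are spread over 17 chromosomes, with 11 on chromosome 11. Many lie against other genes: 25 overlap an annotated gene, 18 of them a listed one, and 21 start within 1000 bases of a listed gene that runs the other way. Tcp1, Rrnad1 and Ncapd2, given above, moved in the direction of their member, but other called neighbours did not. Gga3, which overlaps Mrps7 (change 0.13) by 378 bases, fell (-0.29, adjusted p = 0.0152 by limma). Cuedc1, which overlaps Mrps23 (0.17) by 35 bases, fell as well (-0.64, adjusted p = 0.0114). Eme1 rose (1.32, adjusted p = 0.0011) where it overlaps Mrpl27 (0.02) by 67 bases. Mrpl46 and Mrps11, named for their position after their values were seen, start 42 bases apart and belong to different subunits. Mrpl46 was at 25.6 ± 2.51 and 27.1 ± 2.70 CPM and Mrps11 at 27.3 ± 7.54 and 29.3 ± 4.35 CPM, with neither passing. RefSeq holds 8 pseudogenes of 6 members, and 0 of them are in the table, so reads from such copies could be counted to the member.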

How the data were processed

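Each cell of the table that the authors deposited is a signal, a count per M of the TMM-scaled library size as they named it, and CPM stands for this value. Tools and builds in the submitters' processing notes were featureCounts, GRCm38, mm10, R 3.4.3 and limma 3.34.9; aligner and strand setting are not given in the sources used here. As 54.6% to 65.0% of low values were whole reads (within 0.001 read), no count test was run, and the planned log-scale test was kept although the unit was a scaled signal and not plain CPM. Library totals were recovered from the value steps.

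Of 11723 Entrez identifiers 11651 matched a RefSeq symbol (GRCm38.p6) and 72 did not. The filter asked for a value of 1 or more in 4 or more of the 8 libraries, which 11530 genes met. Both genotypes were compared on log2(value + 0.5) in R 4.3.3 using limma 3.58.1 with a mean-variance trend and Benjamini-Hochberg adjustment; intervals are 95%. The steps were also run on simulated counts with the same dispersion for all genes and no shared differences between libraries. These data have such differences, so that run does not show how the steps handle them. Transcript lengths and GC are medians over GENCODE vM21 protein-coding transcripts. Il2 was tested by exact two-sided permutation. The p-values measure the spread between these samples.

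Named members were those called, the 6 smallest p, the 3 highest and lowest levels per kb and the 3 most negative changes in each subunit, and a fixed panel. The members and lists were chosen with earlier results of these data known. Alternatives were other pseudocounts, filters, scalings, weights, covariates and blocks, a GC and length correction, a fit without trend, the subunit taken from structures, and subsets of libraries.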

Additional observations from a re-analysis of the deposited data

Results flagged for a closer look

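Of 64 groups of 4 libraries checked for a value far from the others, 1 was marked, where chance gives about 1 in 20. Mrps10 stood at 23.5 CPM in IL-2-KO 1 and at 18.8, 18.9 and 18.5 CPM in IL-2-KO 2, 3 and 4, a gap of 0.92 of the group's range. In WT it ran from 19.8 to 26.3 CPM, so the marked library lay within the WT range.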

How the results depend on the processing

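Over 24 alternatives, 665 of 768 values of named members kept their direction and side of the threshold, 52 lost the call, 15 gained it and 36 changed sign, in 9 members that were never called; the causes were not tested. Mrpl23 kept its call in 22, Mrpl18 in 19, Mrpl52 in 15, Mrps25 and Mrps18b in 14 and Mrpl35 in 8. Among named members, array weights added calls of Mrpl37, Mrpl24, Mrps16, Mrpl12, Mrps30, Mrps10 and Mrpl22. GC and length correction added Mrpl37, Mrpl24 and Mrps34, and the median shift added Mrpl37. Mrpl12 also passed without WT 2, and without both WT 2 and IL-2-KO 3. Mrpl20 and Mrps34 passed without IL-2-KO 4.

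Calls among the members, 4 higher and 2 lower as reported, were 2 higher after quantile normalization, 9 higher and 8 lower with array weights (which called 37.8% of all genes), 4 lower after GC and length correction, and 0 and 0 by limma within libraries above or below 2 M cells, where fewer samples were tested (4 and 6 members at an unadjusted p under 0.05). Leaving out 1 library gave 0 to 7 higher and 1 to 2 lower. Calls among the other mitochondrial translation genes, 2 higher and 8 lower as reported, were 1 higher under the median shift, with cell number class as a block and without the trend, 4 higher and 21 lower with array weights, and 0 and 0 within either cell number class. Leaving out 1 library gave 1 to 3 higher and 4 to 10 lower.

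The replicate numbers did not pair the samples, as same-numbered libraries had correlations of deviations of 0.08, -0.53, -0.40 and 0.39 and did not each correlate best with their own number. The largest correlation between genotypes was 0.66, between WT 2 and IL-2-KO 3, the libraries with the highest CD4 and myeloid marker sums. The main fit does not model such shared deviations. Without both libraries 5 members were called and the members' median change was 0.06. With the replicate block, 1 member was higher (Mrpl18) and 1 lower (Mrpl23), and 1 other translation gene was higher and 4 lower. With the replicate block and GC and length correction, 2 members were higher and 1 lower, and 1 other translation gene was higher. The block lowered the calls among all genes from 2211 to 1397.

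The members' median change ran from 0.01 with array weights to 0.14 without IL-2-KO 4. Among all genes, 1285 were higher and 926 lower as reported, 1173 and 1102 after the median shift, and 1169 and 1223 after quantile normalization.

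Values that changed sign ran from -0.13 (Mrps22, array weights) to 0.083 (Mrpl44, libraries above 2 M cells). Under the median shift, Mrpl11 was at -0.0053. Under quantile normalization, Il2 was at -0.11, Mrps36 at -0.044, Mrps22 at -0.010, Mrpl11 at -0.0077 and Mrpl47 at -0.010. With array weights, Mrps7 was at -0.010, Mrps22 at -0.13, Mrpl11 at -0.11 and Mrps18a at 0.075. With cell number as a covariate, Mrps18a was at 0.016 and Mrpl44 at 0.0032. After GC and length correction, Mrpl11 was at -0.024. With the replicate block and this correction, Mrpl11 was at -0.024. Without both WT 2 and IL-2-KO 3, Il2 was at -0.12, Mrps22 at -0.11 and Mrps18a at 0.027. Above 2 M cells, Mrpl11 was at -0.074, Mrps18a at 0.043, Mrpl44 at 0.083 and Mrpl30 at -0.024. Below 2 M cells, Il2 was at -0.015, Mrps22 at -0.060 and Mrpl33 at -0.045. Leaving out 1 library gave Il2 -0.10 to 0.20, Mrps7 -0.00019 to 0.21, Mrps22 -0.048 to 0.098, Mrpl11 -0.077 to 0.10, Mrps18a -0.067 to 0.039, Mrpl44 -0.069 to 0.040, Mrpl47 -0.034 to 0.25 and Mrpl33 -0.0071 to 0.16. The number of libraries and the 11.9 to 18.6 counts behind 1 CPM limit the precision of all these values.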
